A study of Homo sapiens with 9 samples.

Results

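The 10 genes described here carry and brake the transforming growth factor beta (TGF-beta) signal: the ligands TGFB1, TGFB2 and TGFB3, the receptors TGFBR1 and TGFBR2, the signal carriers SMAD2, SMAD3 and SMAD4, the inhibitory SMAD7 and the corepressor SKIL. They were chosen by symbol, for their place in the pathway, from a table of 20323 genes, and each had 1 row in it. RNA was sequenced from HKC-8 cells, an established human line of kidney proximal tubular epithelium, in 9 libraries that form 3 groups of 3. Wnt1+KP6 cells were transfected with the Wnt1 plasmid p-Wnt-1 and treated with KP6, a peptide derived from the kidney protein Klotho. Wnt1 cells received the plasmid alone, and control cells the empty vector pcDNA3. Series and labels place the work in kidney injury and Wnt/beta-catenin signalling. The questions here are how the genes of the TGF-beta pathway stood under the Wnt1 plasmid against the empty vector, and under KP6 against the plasmid alone.

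TGF-beta is secreted in a latent form, and once released it binds TGFBR2, which recruits and activates the kinase TGFBR1. TGFBR1 phosphorylates SMAD2 and SMAD3, which join SMAD4 and enter the nucleus to regulate transcription. SMAD7 blocks and degrades the receptor, SKIL (SnoN) represses SMAD target genes, and both genes are themselves induced by the signal as feedback. In the kidney the pathway is best known for driving fibrosis.

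Library totals were 21199078 to 27507623 expected counts. WNT1, the gene on the plasmid, had 1, 2 and 0 counts in the Wnt1+KP6 libraries, 0 in every Wnt1 library and 0 in every control library. A count of 0 over the 3 Wnt1 libraries allows up to 0.0413 CPM (counts scaled to library size), so the values do not bear out the plasmid label. An insert without the counted human transcript sequence would also give 0, and this was not tested. Wnt1+KP6 and Wnt1 below mean the libraries labelled so. The labels do not say that replicates came from separate cultures, so each p-value rests on the spread between samples that may be technical repeats. Replicate 1 stood apart from replicates 2 and 3 in every group. Within a group the chi-square per degree of freedom between replicates 2 and 3 was 3.29 for Wnt1+KP6, 3.08 for Wnt1 and 13.4 for control, against 54.7 to 144 between replicate 1 and either of them. Replicate 1 of Wnt1+KP6 was as close to replicate 1 of Wnt1 (3.47) as replicates 2 and 3 of a group were to each other. All 9 libraries carry the same batch label. Results are given below also with the replicate number as a block and with replicates 2 and 3 only. Of the markers, 4 of 6 for kidney epithelium averaged over 1 CPM (PAX8, KRT8, KRT18 and EPCAM) but only GGT1 of 10 for proximal tubule. The epithelial markers CDH1 and PAX2 had at most 0.147 and 0.326 CPM in any library. Of the markers of other cells, 0 of 5 for distal nephron (UMOD and AQP2 at 0 throughout) and 0 of 4 for endothelium (KDR at 0) averaged over 1 CPM. Among 4 leukocyte markers PTPRC and CD3E were at 0 and CD68 at 24.7 to 51.8 CPM. Of 6 fibroblast markers COL1A1 had 15.01 to 24.87 CPM. LUM had 1.71, 2.40 and 2.36 CPM in replicate 1 of Wnt1+KP6, Wnt1 and control and at most 0.112 CPM elsewhere. COL1A2 had 7.26 CPM in replicate 1 of control and at most 0.668 CPM elsewhere. In the same library DCN had 1.40 CPM (at most 0.209 elsewhere), PDGFRA 0.878 CPM (0 elsewhere) and PDGFRB 0.590 CPM (at most 0.310 elsewhere). The summed fibroblast markers were 18.0 to 21.6 CPM in Wnt1+KP6, 15.4 to 20.1 CPM in Wnt1 and 21.6 to 37.4 CPM in control, and their part in the results was not tested. In bulk RNA, fewer cells of a type and less RNA per cell cannot be told apart.

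Under KP6 on top of the Wnt1 plasmid, the 2 feedback brakes SMAD7 and SKIL stood highest among the members, at log2 fold changes of 0.86 ± 0.62 and 0.61 ± 0.27 (SE), while ligands, receptors and signal-carrying SMADs lay between -0.26 and 0.14. Under the Wnt1 plasmid against the empty vector, 9 of 10 members lay below 0, most of all TGFB3 at -0.80 ± 0.30 and SMAD7 at -0.52 ± 0.62. None of these differences passed the test. With edgeR's quasi-likelihood test over all 9 libraries and Benjamini-Hochberg adjustment over 13153 genes, 0 of 10 members were called (adjusted p under 0.05) in Wnt1+KP6 against Wnt1, where 0% of all genes were called. The count was 0 of 10 in Wnt1 against control (0.122% of all genes) and 0 of 10 in Wnt1+KP6 against control (0.228%). DESeq2 also called 0 members in each comparison, where it called 0.153%, 2.31% and 5.35% of all genes. At an unadjusted p under 0.05 there were 0 members in the first comparison (2.76% of all genes), and TGFB3 in Wnt1 against control (11.2%) and in Wnt1+KP6 against control (15.8%). The last 2 comparisons share the control libraries, and the first 2 share the Wnt1 libraries.

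More members were called when replicate 1 of each group was left out, an alternative chosen because that replicate was known to stand apart. With replicates 2 and 3 only, SMAD7 and SKIL rose in Wnt1+KP6 against Wnt1, and no other member was called, where 8.62% of all genes were. In Wnt1 against control, SMAD7, TGFB1, TGFB3, SKIL and SMAD3 fell and SMAD2 rose (6 of 10, against 31.6% of all genes). Against control, Wnt1+KP6 had SMAD7, SKIL, TGFBR2 and SMAD2 risen and TGFB3 and SMAD3 fallen (6 of 10, against 40.6%). Over all 9 libraries the members' median absolute log2 fold change was near that of all genes: 0.06 and 0.08 in Wnt1+KP6 against Wnt1, 0.16 and 0.15 in Wnt1 against control, and 0.14 and 0.17 in Wnt1+KP6 against control. In replicates 2 and 3 alone it was 0.20 for the members and 0.11 for all genes in Wnt1+KP6 against Wnt1, 0.26 and 0.21 in Wnt1 against control, and 0.24 and 0.24 in Wnt1+KP6 against control.

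**Figure D1:**
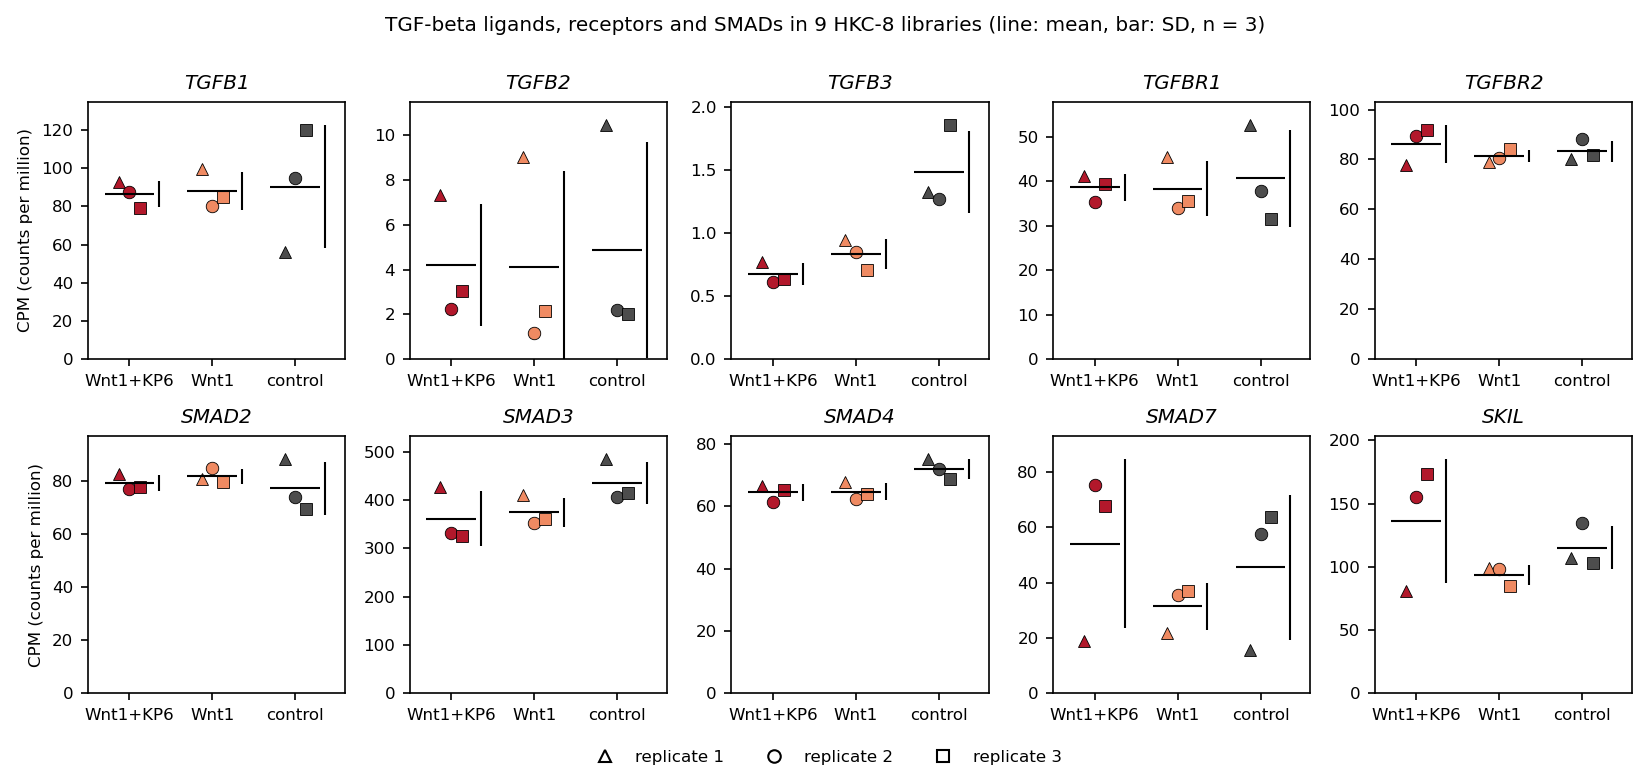
CPM of each of the 10 genes in the 3 groups, each y axis from 0 (triangle, replicate 1; circle, replicate 2; square, replicate 3; horizontal line, mean; vertical bar, SD, n = 3, cut at 0). For SMAD7, replicate 1 stands at 19.1, 21.8 and 15.6 CPM, under every replicate 2 and 3 library; for TGFB2, replicate 1 is the high one in each group.

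Levels can be set against each other only per gene length, so the authors' FPKM values (fragments scaled to gene length and library size) are used for the order. SMAD3 was the most abundant at a mean of 101.1 FPKM over 9 libraries, and its lowest library (87.4 FPKM) lay above the highest of any other member. SMAD2 (35.4), TGFB1 (31.95), SKIL (25.4), SMAD4 (20.4), TGFBR2 (18.3), SMAD7 (14.9) and TGFBR1 (9.44 FPKM) followed, each with a range that overlapped the next. TGFB2 (0.770 FPKM) and TGFB3 (0.389 FPKM) lay far below and overlapped each other. TGFB1 made up 90.3% to 98.2% of the FPKM of the 3 ligands, so at the RNA level these cells had mainly TGFB1. The FPKM of SMAD3 was 2.45 to 3.75 times that of SMAD2 in the 9 libraries, and that of TGFBR2 was 1.49 to 2.41 times that of TGFBR1.

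**Figure D2:**
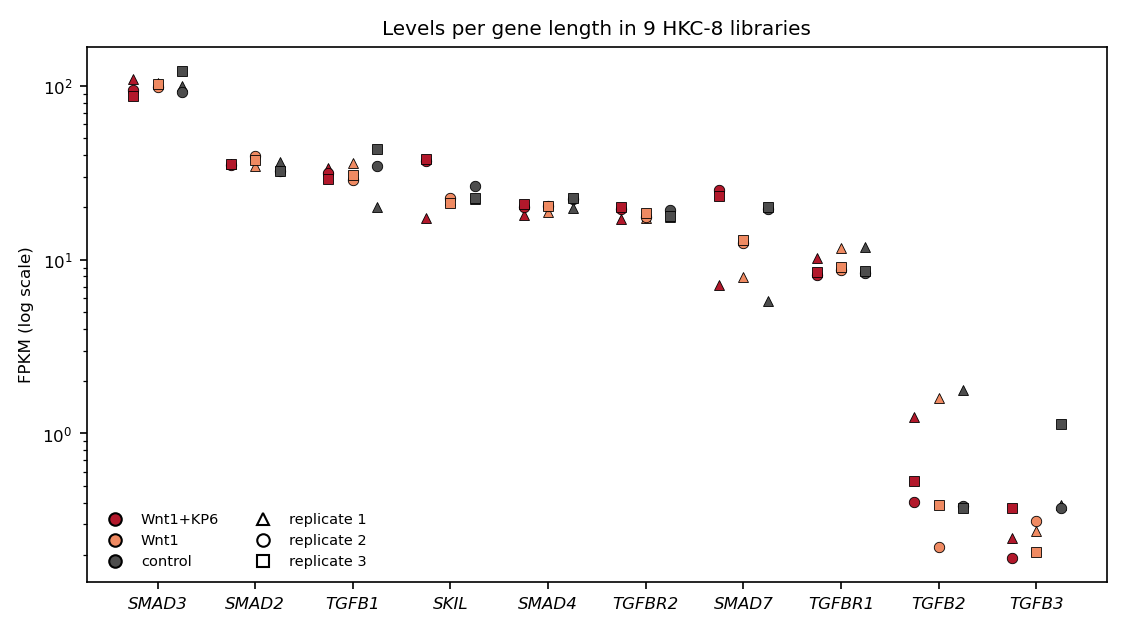
FPKM on a log scale of the 10 genes, ordered by their mean over 9 libraries, with groups by colour and replicates by symbol. SMAD3 (87.4 to 121.1 FPKM) stands above all others, and TGFB2 and TGFB3 stay under 1.8 FPKM in every library.

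Among the ligands, TGFB1 (ENSG00000105329; hg38 chr19:41301587-41353911, minus strand), the most widely expressed of the isoforms, had 92.5, 87.6 and 79.1 CPM in replicates 1, 2 and 3 of Wnt1+KP6, 99.3, 80.1 and 84.8 CPM in Wnt1 and 56.1, 94.9 and 120.0 CPM in control. The groups overlapped, and the control libraries alone spanned the whole range. Its log2 fold change was 0.03 ± 0.24 in Wnt1+KP6 against Wnt1, -0.02 ± 0.24 in Wnt1 against control and 0.01 ± 0.24 in Wnt1+KP6 against control. Compared within a replicate number, Wnt1 against control differed by log2 0.86 in replicate 1, -0.21 in replicate 2 and -0.49 in replicate 3, so the sign turned between replicate 1 and the rest. With replicates 2 and 3 only, TGFB1 fell in Wnt1 against control (-0.36 ± 0.10, edgeR adjusted p = 0.0169). Of its exon bases 6.6% lie opposite HNRNPUL1 and cannot be told apart from it without strand.

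TGFB2 (ENSG00000092969; chr1:218346235-218444619, plus strand), the isoform of the 3 whose binding to TGFBR2 most depends on a co-receptor, had 7.33, 2.25 and 3.04 CPM in Wnt1+KP6, 9.05, 1.18 and 2.17 CPM in Wnt1 and 10.5, 2.21 and 2.01 CPM in control. Its high libraries were replicate 1 of every group, and the groups overlapped. The mean over the 3 replicate 1 libraries was 8.95 CPM, 4.17 times the mean of 2.14 CPM over the other 6. No comparison of groups separated it (edgeR adjusted p of 0.962 to 1), and counts were low, 25 to 284 in a library. On the same strand 26.6% of the exon bases of TGFB2 are shared with TGFB2-OT1, so how reads were split between them is uncertain.

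TGFB3 (ENSG00000119699; chr14:75958099-75982991, minus strand), the isoform known from palate and lung development, had 0.773, 0.614 and 0.634 CPM in Wnt1+KP6, 0.945, 0.849 and 0.710 CPM in Wnt1 and 1.33, 1.27 and 1.86 CPM in control. In CPM, every Wnt1+KP6 and every Wnt1 library lay below every control library, and the lower side held in all 3 replicate numbers. In FPKM, replicate 3 of Wnt1+KP6 (0.375) lay just above replicate 2 of control (0.371). The log2 fold change was -1.06 ± 0.31 in Wnt1+KP6 against control (edgeR adjusted p = 0.156) and -0.80 ± 0.30 in Wnt1 against control (adjusted p = 0.366). Wnt1+KP6 against Wnt1 gave -0.26 ± 0.31 (adjusted p = 1). These values rest on 15 to 48 counts in a library, and with replicates 2 and 3 only both differences from control were called (-1.22, adjusted p = 0.0159, and -0.98, adjusted p = 0.0486). The 3.3% of its exon bases that lie opposite TGFB3-AS1 cannot be told apart from it without strand.

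The number of members whose groups did not overlap in CPM, without TMM factors, was 0 in Wnt1+KP6 against Wnt1, where 6.93% of all genes did not overlap. It was 3 in Wnt1 against control (TGFB3, SKIL and SMAD4, all lower in Wnt1; 16.5% of all genes, 9.12% in that direction). It was 2 in Wnt1+KP6 against control (TGFB3 and SMAD4, both lower in Wnt1+KP6; 17.8% of all genes, 11.8% in that direction). With TMM scaling SMAD4 overlapped in that comparison, by log2 0.02 in replicate 3. In FPKM, TGFB3 in Wnt1 against control was the only one of these that stayed apart.

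Of the receptors, TGFBR1 (ENSG00000106799; chr9:99104038-99154192, plus strand), the type I kinase that phosphorylates SMAD2 and SMAD3, had 41.1, 35.2 and 39.4 CPM in Wnt1+KP6, 45.4, 34.0 and 35.5 CPM in Wnt1 and 52.6, 37.8 and 31.4 CPM in control. In CPM, replicate 1 was the highest library in each group, and the groups overlapped. With TMM scaling replicate 1 was not the highest in Wnt1+KP6. Its log2 fold changes lay between -0.05 and 0.07 with an SE of 0.17. TGFBR2 (ENSG00000163513; chr3:30606502-30694142, plus strand), the type II receptor that binds the ligand, had 77.7, 89.5 and 91.6 CPM in Wnt1+KP6, 79.1, 80.7 and 84.1 CPM in Wnt1 and 80.1, 88.0 and 81.8 CPM in control. In CPM, without TMM factors, its highest library was 1.18 times its lowest, the smallest such ratio among the members. With TMM scaling, groups differed within a replicate number by up to log2 0.25 for TGFBR2 and 0.17 for SMAD4. Wnt1+KP6 against Wnt1 gave 0.14 ± 0.11 (edgeR adjusted p = 1), and with replicates 2 and 3 only 0.21 ± 0.07 (adjusted p = 0.0888); against control in those replicates TGFBR2 rose by 0.19 ± 0.07 (adjusted p = 0.0400).

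Of the receptor-activated SMADs, SMAD2 (ENSG00000175387; chr18:47808957-47931146, minus strand) had 82.7, 77.0 and 77.8 CPM in Wnt1+KP6, 80.6, 84.8 and 79.4 CPM in Wnt1 and 88.0, 73.8 and 69.3 CPM in control. The 3 groups overlapped, and the control libraries held both the highest and the lowest value. Its log2 fold change was 0.01 ± 0.09 in Wnt1+KP6 against Wnt1 and 0.11 ± 0.09 in Wnt1 against control. SMAD3 (ENSG00000166949; chr15:67063763-67195195, plus strand), which unlike the main form of SMAD2 binds DNA itself and is the SMAD most tied to fibrosis, had 426.6, 332.8 and 325.9 CPM in Wnt1+KP6, 409.7, 353.5 and 360.8 CPM in Wnt1 and 484.7, 407.5 and 414.0 CPM in control. Within each replicate number, both Wnt1+KP6 and Wnt1 lay below control in log2 CPM, by 0.15 to 0.26, although the groups overlapped. This direction did not hold in FPKM. There Wnt1+KP6 and Wnt1 had 109.5 and 104.4 against 99.2 FPKM in control in replicate 1. In replicate 2 they had 94.4 and 99.1 against 92.2 FPKM, and only in replicate 3 were both below control (87.4 and 102.3 against 121.1 FPKM). The fit gave -0.19 ± 0.11 in Wnt1+KP6 against control (edgeR adjusted p = 0.446) and -0.19 ± 0.11 in Wnt1 against control (adjusted p = 0.563). Wnt1+KP6 against Wnt1 stood at -0.001 ± 0.11.

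SMAD4 (ENSG00000141646; chr18:51028394-51085045, plus strand), the common partner shared with the bone morphogenetic protein (BMP) branch, had 66.4, 61.5 and 65.3 CPM in Wnt1+KP6, 67.6, 62.3 and 63.8 CPM in Wnt1 and 75.0, 71.9 and 68.7 CPM in control. In CPM, without TMM factors, every control library lay above every library of the other groups. In the TMM scaling of the fit, Wnt1+KP6 stood log2 0.02 above control in replicate 3. The log2 differences were small, -0.08 ± 0.07 in Wnt1+KP6 against control (edgeR adjusted p = 0.669) and -0.13 ± 0.07 in Wnt1 against control (adjusted p = 0.559). On the same strand 7.4% of the exon bases of SMAD4 are shared with AC091551.1.

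SMAD7 (ENSG00000101665; chr18:48919853-48952052, minus strand), the inhibitory SMAD, had 19.1, 75.4 and 67.9 CPM in Wnt1+KP6, 21.8, 35.7 and 37.0 CPM in Wnt1 and 15.6, 57.6 and 63.6 CPM in control. Replicate 1 was low in all 3 groups, and in replicates 2 and 3 the order was Wnt1+KP6 above control above Wnt1, with no overlap. Between Wnt1+KP6 and Wnt1 the log2 difference was -0.18 in replicate 1, 1.15 in replicate 2 and 0.95 in replicate 3. Between Wnt1 and control it was 0.51, -0.65 and -0.77 in the same replicates. Over 9 libraries neither difference was called (0.86 ± 0.62, edgeR adjusted p = 1, and -0.52 ± 0.62, adjusted p = 0.826). With replicates 2 and 3 only, SMAD7 rose in Wnt1+KP6 against Wnt1 (1.05 ± 0.09, adjusted p = 1.37e-06), fell in Wnt1 against control (-0.71 ± 0.09, adjusted p = 4e-05) and rose in Wnt1+KP6 against control (0.34 ± 0.09, adjusted p = 0.00591). The last of these turned to -0.08 over all libraries but control replicate 1.

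SKIL (ENSG00000136603; chr3:170357678-170396835, plus strand), the corepressor that holds SMAD2, SMAD3 and SMAD4 inactive until it is degraded, had 81.0, 155.0 and 173.0 CPM in Wnt1+KP6, 98.7, 97.9 and 84.8 CPM in Wnt1 and 107.3, 134.6 and 103.2 CPM in control. In CPM, every Wnt1 library lay below every control library, and replicate 1 of Wnt1+KP6 was the lowest of all 9 while replicates 2 and 3 of that group were the highest. In FPKM, replicate 2 of Wnt1 (22.48) lay just above replicate 1 of control (22.18). Over 9 libraries Wnt1+KP6 against Wnt1 gave 0.61 ± 0.27 (edgeR adjusted p = 1). Without replicate 1 of Wnt1+KP6 alone, SKIL rose against Wnt1 (0.90, adjusted p = 0.0152; 1.61% of all genes called) and against control (0.63, adjusted p = 0.0360; 5.2%). With replicates 2 and 3 only it rose against Wnt1 (0.92 ± 0.11, adjusted p = 9.1e-05) and control (0.56 ± 0.11, adjusted p = 0.00121), and fell in Wnt1 against control (-0.35 ± 0.11, adjusted p = 0.0270).

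The promoters of SMAD7, SKIL and TGFB2 are shown because the first 2 moved together in replicates 2 and 3 and TGFB2 varied most between libraries. Each is the 250 bases before a transcription start of RefSeq on GRCh38.p14 (the hg38 assembly), read 5′ to 3′ on the gene's strand; capitals mark CAGAC, the core of the SMAD-binding element, in either orientation (GTCTG on the other strand), and TGACGTCA, the cyclic AMP response element.
SMAD7 chr18:48950966-48951215, minus strand: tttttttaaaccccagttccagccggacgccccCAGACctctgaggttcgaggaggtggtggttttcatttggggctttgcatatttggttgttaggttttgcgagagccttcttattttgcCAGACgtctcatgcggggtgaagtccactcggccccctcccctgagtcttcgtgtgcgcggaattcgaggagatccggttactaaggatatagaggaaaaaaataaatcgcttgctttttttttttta
SKIL chr3:170357465-170357714, plus strand: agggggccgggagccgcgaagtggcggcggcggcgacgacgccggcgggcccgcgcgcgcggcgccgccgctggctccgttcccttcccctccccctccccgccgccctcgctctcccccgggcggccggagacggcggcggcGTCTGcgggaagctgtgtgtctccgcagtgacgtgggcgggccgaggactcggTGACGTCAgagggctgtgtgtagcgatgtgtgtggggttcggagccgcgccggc
TGFB2 chr1:218345086-218345335, plus strand: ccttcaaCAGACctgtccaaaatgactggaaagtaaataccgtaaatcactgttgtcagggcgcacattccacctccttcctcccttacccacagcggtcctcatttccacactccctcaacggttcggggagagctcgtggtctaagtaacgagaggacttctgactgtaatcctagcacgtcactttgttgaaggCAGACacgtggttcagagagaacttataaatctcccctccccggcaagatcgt

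SMAD7 had CAGAC at -217 and -128 bases from that start, the farthest upstream of its 3 RefSeq starts; of the other two, 1 had it once, at -193, and 1 had none. SKIL had it at -107 and TGFB2 at -243 and -53 (first base of each match). A match to these 5 letters, on either strand, was in 38% of 35116 RefSeq promoter windows of the same length. SKIL also had TGACGTCA at -54, which 1.65% of the windows held. No member had the longer palindrome GTCTAGAC (0.182% of windows) at any of the members' 26 starts. TGANTCA, the AP-1 site, was in 6.57% of windows and, among the members, at 1 start of SMAD3. The windows of SKIL (78.4% GC) and SMAD7 (48.0% GC) lie on either side of the median of 58% GC over all windows. The matches are letters in a window and not measured binding.

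**Figure D3:**
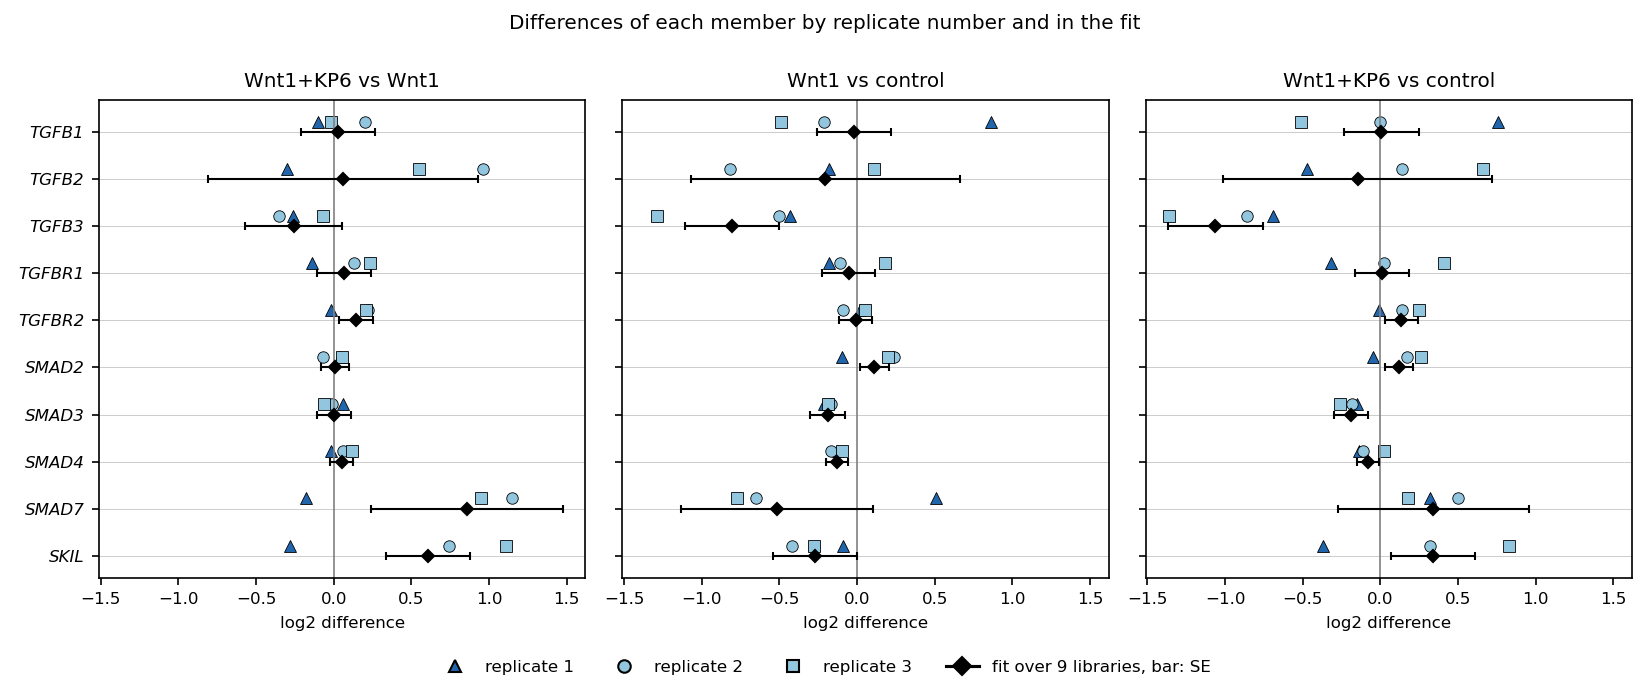
Log2 difference of the 10 genes in each comparison: blue symbols within replicate 1, 2 or 3 (log2 CPM), black diamonds the fit over 9 libraries with its SE. In Wnt1+KP6 against Wnt1, SMAD7 and SKIL are above 0 in replicates 2 and 3 (0.74 to 1.15) and below 0 in replicate 1; TGFB3 is below 0 in all replicates of both comparisons with control.

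The split by replicate number ran through the members as it did through other genes. In CPM, without TMM factors, replicate 1 of the 3 groups did not overlap the other 6 libraries for 4 of 10 members. The share of all genes was 20.6%. TGFB2 and TGFBR1 were higher in replicate 1, and SMAD7 and TGFBR2 lower. For TGFBR1 the TMM factors of replicates 1 and 3 of Wnt1+KP6 (1.022 and 0.946) turn the order of 41.1 and 39.4 CPM. SMAD7 averaged 18.8 CPM in replicate 1 and 56.2 CPM in the other 6, a ratio of 2.98 between the others and replicate 1. With the replicate number as a block the members' calls did not change, at 0 of 10 in each comparison, where 0%, 0.722% and 1.13% of all genes were called. Over all genes the block gave 95 calls in Wnt1 against control (16 without it) and 149 in Wnt1+KP6 against control (30 without it).

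Other genes of the pathway were read from 10 lists with 162 distinct genes in the table. The counts given for these lists stand against 2.76%, 11.2% and 15.8% of all genes at an unadjusted p under 0.05 in Wnt1+KP6 against Wnt1, Wnt1 against control and Wnt1+KP6 against control, and against 0.153%, 2.31% and 5.35% called by DESeq2. Over all 9 libraries 1 of them was called: BHLHE40, a repressor induced by TGF-beta among other signals, rose in Wnt1+KP6 against control (2.12 ± 0.32, edgeR adjusted p = 0.0468; 0.0583 with the replicate block). BHLHE40 had 285.2, 641.4 and 600.1 CPM in Wnt1+KP6, 310.8, 204.1 and 206.2 CPM in Wnt1 and 129.5, 116.4 and 131.0 CPM in control. Every Wnt1+KP6 library lay above every control library, and replicate 1 of Wnt1+KP6 lay below replicate 1 of Wnt1.

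The list of TGF-beta and SMAD3 target genes had 29 of 32 members tested. In Wnt1+KP6 against Wnt1, 24 of 29 lay above 0 with a median of 0.27, against 0.00 over all genes; 0 were called by edgeR and 0 by DESeq2, and 6 had an unadjusted p under 0.05 (2.76% of all genes). In Wnt1 against control 11 of 29 lay above 0 with a median of -0.35, and 0 were called by edgeR (9 at an unadjusted p under 0.05, against 11.2% of all genes) and 1 by DESeq2, FN1. For Wnt1+KP6 against control the median was 0.22, with 1 called by edgeR and 7 by DESeq2. With replicates 2 and 3 only, 28 were tested: 14 rose and 0 fell in Wnt1+KP6 against Wnt1 (8.62% of all genes called in either direction), 8 rose and 18 fell in Wnt1 against control (31.6%), and 12 rose and 12 fell in Wnt1+KP6 against control (40.6%).

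CCN2, the matricellular growth factor also called CTGF, had 38.8, 1481 and 1447 CPM in Wnt1+KP6, 38.2, 100.3 and 114.7 CPM in Wnt1 and 33.2, 188.5 and 194.5 CPM in control. Its 3 replicate 1 libraries were alike and low, and in replicates 2 and 3 it showed the order seen for SMAD7. The log2 fold change in Wnt1+KP6 against Wnt1 was 3.63 ± 1.21 over 9 libraries (edgeR adjusted p = 1) and 3.84 ± 0.07 in replicates 2 and 3 (adjusted p = 1.54e-13). JUNB, a subunit of AP-1, had 153.7, 405.1 and 366.7 CPM in Wnt1+KP6, 153.1, 109.2 and 109.3 CPM in Wnt1 and 77.4, 147.1 and 192.4 CPM in control. CDKN1A, the cell cycle inhibitor p21, had 55.5, 198.9 and 185.8 CPM in Wnt1+KP6, 55.0, 63.3 and 69.0 CPM in Wnt1 and 48.0, 26.6 and 29.3 CPM in control. JUNB and CDKN1A were level between Wnt1+KP6 and Wnt1 in replicate 1 and high in Wnt1+KP6 in replicates 2 and 3. FN1, the matrix protein fibronectin, differed from these: it had 6622, 8162 and 7915 CPM in Wnt1+KP6, 6956, 8303 and 8461 CPM in Wnt1 and 4936, 5621 and 5887 CPM in control. Every library of Wnt1+KP6 and Wnt1 lay above control. The fit gave 0.55 ± 0.15 in Wnt1 against control (edgeR adjusted p = 0.237; 0.0166 with the replicate block) and 0.55 ± 0.15 in Wnt1+KP6 against control (0.146; 0.0167 with the block), and -0.01 ± 0.15 in Wnt1+KP6 against Wnt1. SNAI2 also lay above control within each replicate number, by log2 2.39, 0.82 and 1.40 in Wnt1 and 2.17, 1.48 and 2.07 in Wnt1+KP6. It was not among the genes called by edgeR, with or without the replicate block, or by DESeq2. Nor was it among those called with replicates 2 and 3 only.

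Among the genes of latency and activation, 9 of 16 were tested, and edgeR called 0 in each comparison (1, 2 and 1 at an unadjusted p under 0.05 in Wnt1+KP6 against Wnt1, Wnt1 against control and Wnt1+KP6 against control). DESeq2 called THBS1 in the first and the last. THBS1, thrombospondin 1, which can release TGF-beta from its latent form, had 6.63, 337.9 and 325.8 CPM in Wnt1+KP6, 5.82, 7.22 and 8.23 CPM in Wnt1 and 14.6, 9.58 and 9.99 CPM in control. It was high in 2 of 9 libraries, replicates 2 and 3 of Wnt1+KP6. The log2 fold change against Wnt1 was 5.07 ± 1.16 (edgeR adjusted p = 1, DESeq2 adjusted p = 0.00476). ITGB6, the beta subunit of an integrin that activates latent TGF-beta, had 23.97, 47.6 and 52.5 CPM in Wnt1+KP6, 23.8, 43.5 and 48.3 CPM in Wnt1 and 52.4, 90.3 and 79.5 CPM in control. It was below control in every replicate number, by -0.92 ± 0.38 in Wnt1 against control (edgeR adjusted p = 0.416; 0.0187 with the replicate block). On the same strand 20.6% of the exon bases of ITGB6 are shared with AC092153.1, so how reads were split between them is uncertain. LTBP2, a microfibril protein of the LTBP family, had 27.8, 44.2 and 41.7 CPM in Wnt1+KP6, 29.6, 43.3 and 41.9 CPM in Wnt1 and 13.3, 159.5 and 174.1 CPM in control, so it lay above control in replicate 1 and below it in replicates 2 and 3.

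Of 24 other ligands of the superfamily, 8 were tested, and neither edgeR nor DESeq2 called one (0, 0 and 2 at an unadjusted p under 0.05 by edgeR in the same order of comparisons). INHBA, the subunit of activin A, which also signals through SMAD2 and SMAD3, had 28.4, 418.6 and 468.6 CPM in Wnt1+KP6, 37.6, 86.1 and 74.6 CPM in Wnt1 and 16.1, 330.5 and 280.6 CPM in control. Like SMAD7 it was low in replicate 1 and lowest in Wnt1 among replicates 2 and 3. GDF15 had another pattern, with 261.1, 223.3 and 213.2 CPM in Wnt1+KP6 and 256.4, 122.3 and 121.5 CPM in Wnt1. In control it had 200.8, 42.9 and 56.5 CPM, the lowest group within every replicate number. Of 12 secreted antagonists, 6 were tested, and all 6 lay below 0 in Wnt1 against control with a median of -0.54; edgeR called 0 (3 at an unadjusted p under 0.05) and DESeq2 1, FSTL1. FSTL1, a glycoprotein that binds BMPs, had 230.3, 175.6 and 176.9 CPM in Wnt1+KP6, 226.4, 171.1 and 175.2 CPM in Wnt1 and 288.4, 437.0 and 386.9 CPM in control. Every control library lay above the rest, at -0.94 ± 0.18 in Wnt1 against control (edgeR adjusted p = 0.113, DESeq2 adjusted p = 0.000183).

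The BMP branch was represented by 10 of 13 SMAD1/5 target genes, of which edgeR called 0 in each comparison (1, 5 and 2 at an unadjusted p under 0.05) and DESeq2 0, 1 and 2. ID3, an inhibitor of basic helix-loop-helix factors, had 4.64, 105.9 and 90.4 CPM in Wnt1+KP6, 7.09, 10.3 and 12.2 CPM in Wnt1 and 4.72, 120.7 and 141.9 CPM in control. ID1, of the same family, had 80.0, 180.2 and 157.5 CPM in Wnt1+KP6, 75.7, 63.2 and 67.4 CPM in Wnt1 and 61.8, 266.6 and 296.3 CPM in control. In replicates 2 and 3 both were lowest in Wnt1, and unlike SMAD7 they were higher in control than in Wnt1+KP6. BAMBI, a decoy receptor, had 2.52, 4.63 and 3.13 CPM in Wnt1+KP6, 3.45, 4.10 and 3.59 CPM in Wnt1 and 1.44, 1.35 and 1.20 CPM in control. It was above control in every replicate number, by 1.51 ± 0.28 in Wnt1 (edgeR adjusted p = 0.109; 0.0466 with the replicate block) and 1.45 ± 0.28 in Wnt1+KP6 (0.0691; 0.0471 with the block).

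The remaining lists hold receptors, SMADs, nuclear cofactors, brakes of the signal and its non-SMAD branch. Of other receptors and co-receptors 11 of 13 were tested, of other SMADs and their anchors 7 of 7, of nuclear cofactors 14 of 15, of ubiquitin ligases, phosphatases and other brakes 19 of 20, and of non-SMAD signalling 16 of 16. edgeR called 0 of them in every comparison; 1 had an unadjusted p under 0.05 in Wnt1+KP6 against Wnt1, where DESeq2 called none. In the order of the lists above, 3, 2, 2, 1 and 3 had one in Wnt1 against control (DESeq2 called BAMBI, PPP1R15A and CDC42, whose symbol stands on 2 rows, so that its value is uncertain), and 2 of each list in Wnt1+KP6 against control (DESeq2 called BAMBI and PPP1R15A). Their medians in Wnt1+KP6 against Wnt1 lay between -0.00 and 0.04. The gene past that p in Wnt1+KP6 against Wnt1 was PPP1R15A (GADD34), which with SMAD7 brings a phosphatase to TGFBR1. It had 95.6, 350.7 and 334.0 CPM in Wnt1+KP6, 108.6, 148.9 and 148.4 CPM in Wnt1 and 49.7, 46.9 and 55.2 CPM in control. It stood in the order Wnt1+KP6 above Wnt1 above control in replicates 2 and 3, and DESeq2 called it against control in both Wnt1 (1.45, adjusted p = 0.0173) and Wnt1+KP6 (2.47, adjusted p = 2.38e-07).

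**Figure D4:**
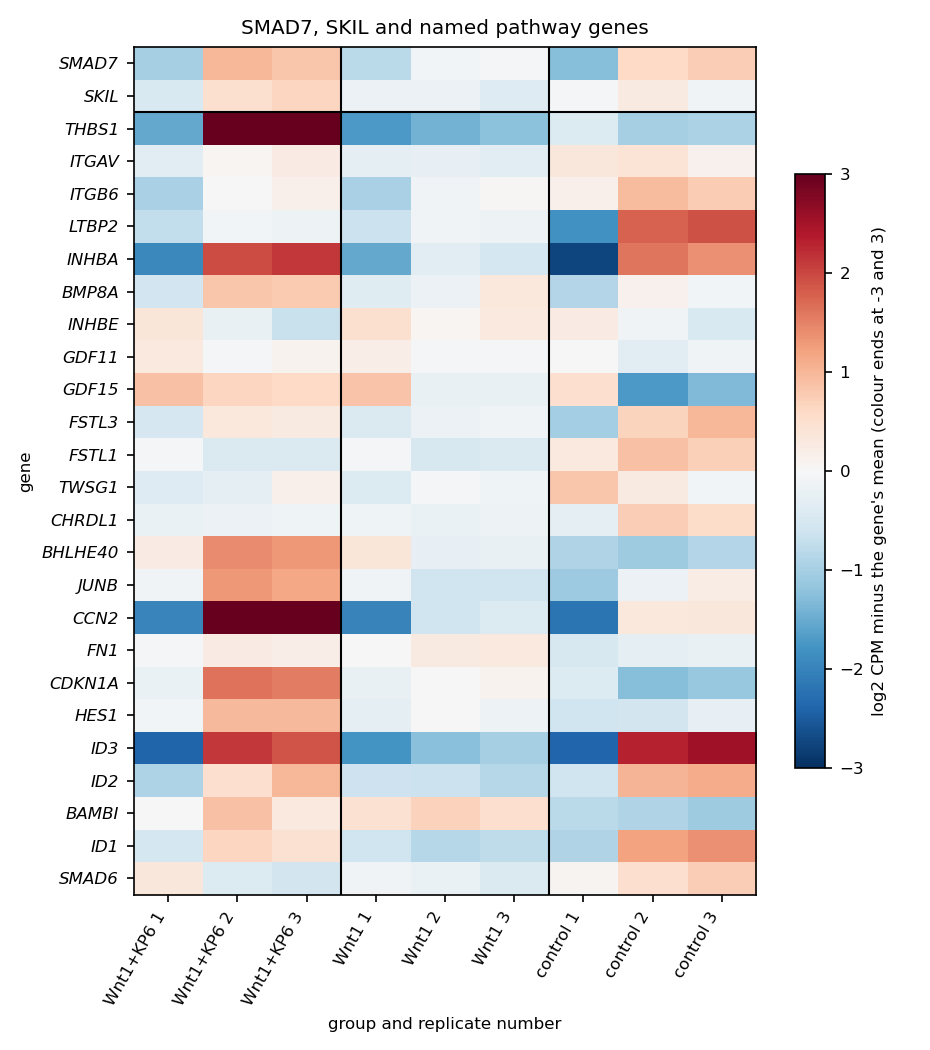
Log2 CPM of SMAD7, SKIL and 24 pathway genes named by the rule (median of at least 1 CPM), each minus its own mean over 9 libraries; red is above the mean and blue below, and the colour ends at -3 and 3. In THBS1 and CCN2 replicates 2 and 3 of Wnt1+KP6 stand out, and in ID3, INHBA and LTBP2 replicates 2 and 3 of control are high and replicate 1 is low. ID3 and INHBA are also high in replicates 2 and 3 of Wnt1+KP6, and LTBP2 is not.

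TGFB3 had the widest range of group means among the members (0.97 in log2 CPM), and the 5 genes nearest to it over the 9 libraries were ELL3, FLT4, UGT8, TSPYL4 and GALNTL6, at root mean square distances of 0.18 to 0.21 in centred log2 CPM. UGT8, for one, had 27.6, 19.7 and 23.5 CPM in Wnt1+KP6, 27.4, 24.7 and 24.3 CPM in Wnt1 and 44.9, 46.6 and 42.1 CPM in control. The nearest to SMAD7 were FJX1 (0.17), SHISA2 (0.22), METRNL (0.23) and AMOTL2 (0.23), and the nearest to SKIL was OGFRL1 (0.10), members chosen for this after their values were seen. All 9 libraries enter each distance, and likeness of pattern says nothing of shared function or control.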

How the data were processed

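Per the file headers, the 1 table the authors deposited holds for every library a column of expected counts and a column of FPKM. The submitters' processing notes name RSEM, StringTie 1.3.1, HISAT2, Bowtie2 2.2.8 and fastp 0.18.0, with hg38 as the build; what each did, and the annotation, is not given in the sources used here. No label states that the kit keeps strand, so antisense reads cannot be told apart. Expected counts (87.6% whole within 1e-06) were rounded. edgeR 4.0.16 in R 4.3.3 (filterByExpr with a minimum count of 10 and a minimum total of 15, TMM, robust quasi-likelihood, 3 group means over 9 libraries) tested 13153 genes, two-sided, with Benjamini-Hochberg adjustment at 0.05. On counts simulated for Wnt1+KP6 against control with a dispersion of 0.01, below the 0.0445 fitted here, 100% of 100 genes changed by a log2 of 1 and of 100 changed by 2 were called (13078 genes tested); this checks the code and not the power in these libraries. CPM is the count over the library total, SE comes from the fit, and within-replicate differences use log2 CPM with TMM factors and a prior count of 2. Overlap of libraries was read in CPM without TMM factors. Alternatives were DESeq2 1.42.0, its size factors, no filter, a replicate block, replicates 2 and 3 only, 2 groups only and each library left out.

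Members, lists and alternatives were chosen with earlier results of these data known. The rule named all members, the 3 genes with the smallest p per list and comparison, and the 5 genes most like the member with the widest range. Those given in full were picked among them after their values were seen. Other genes named by the rule, such as GDF11, HES1 and SMAD9, are not described in the text. Same-numbered libraries deviated together (9 pairs, r 0.11 to 0.67), so the number was used as a block. Libraries numbered 2 and 3 also correlated across numbers (r 0.15 to 0.40): the values set replicate 1 apart from the rest and do not pair 2 with 2 and 3 with 3. No libraries agreed within sampling noise (chi-square per degree of freedom from 3.08 within groups, over genes with at least 50 counts), so none were merged. Coordinates and exon overlaps are from GENCODE 29 (20171 of 20323 IDs matched), promoters from RefSeq (GRCh38.p14; all 10 members matched). One marker of the kidney epithelium list is not reported here. The depth limit for a count of 0 covers counting error only, while the SE of the fit rests on the spread between libraries.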

Additional observations from a re-analysis of the deposited data

How the results depend on the processing

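Replicate 1 stood apart from replicates 2 and 3. Fits to replicates 2 and 3 have 2 libraries a group, and TGFB3 and TGFB2 rest on few counts.

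In Wnt1+KP6 against Wnt1, the genes called numbered 0, and 20 with DESeq2 and 1124 with replicates 2 and 3 only; the members called went to 2 and the list genes to 30 with those replicates, and 1 list gene was called by DESeq2. In Wnt1 against control the 16 genes called became 302 (DESeq2), 95 (replicate block), 9 (2 groups only) and 4115 (replicates 2 and 3); the 6 members and 71 list genes called in replicates 2 and 3 compare with 5 list genes under DESeq2, 5 under the replicate block and 1 with 2 groups only. For Wnt1+KP6 against control the 30 became 674, 149, 0 and 5293 in the same settings, list genes 12, 3, 0 and 74, and members 6 in replicates 2 and 3. Leaving out 1 library gave 0 to 214 genes, 0 to 1 members and 0 to 7 list genes in Wnt1+KP6 against Wnt1, 0 to 879 genes and 0 to 14 list genes in Wnt1 against control, and 0 to 1198 genes, 0 to 1 members and 0 to 17 list genes in Wnt1+KP6 against control. The highest counts came without replicate 1 of Wnt1+KP6 in the first comparison and without replicate 1 of control in the other 2, except for the member SKIL against control, called without replicate 1 of Wnt1+KP6.

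Of 180 member fold changes under settings other than leaving out 1 library, 160 kept direction and call, 14 became called (all with replicates 2 and 3 only) and 6 changed sign. With replicates 2 and 3 only these were SMAD2 at -0.01 in Wnt1+KP6 against Wnt1, TGFBR1 at 0.031 in Wnt1 against control, and TGFB1 at -0.27 and TGFB2 at 0.42 in Wnt1+KP6 against control. With the replicate block, TGFB1 stood at 0.02 in Wnt1 against control and TGFB2 at 0.087 in Wnt1+KP6 against control; none of the 6 was called, and the block changed no member's call. Leaving out 1 library changed sign in 31 of 270. In Wnt1+KP6 against Wnt1 the ranges that crossed 0 were TGFB1 -0.028 to 0.108, TGFB2 -0.55 to 1.34, TGFBR1 -0.004 to 0.19, SMAD2 -0.014 to 0.047 and SMAD3 -0.093 to 0.054. In Wnt1 against control they were TGFB1 -0.28 to 0.25, TGFB2 -1.48 to 0.98, TGFBR1 -0.20 to 0.16 and TGFBR2 -0.051 to 0.036. For Wnt1+KP6 against control they were TGFB1 -0.25 to 0.28, TGFB2 -0.75 to 1.03, TGFBR1 -0.13 to 0.22 and SMAD7 -0.076 to 0.759. TGFB3, SMAD4 and SKIL kept their sign throughout. The cause was not tested.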

Other observations

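The deposited expected count and FPKM of a gene together imply the length over which the authors scaled it. For TGFB3 this implied length was 3106, 3198 and 1690 bases in replicates 1, 2 and 3 of Wnt1+KP6, 3437, 2721 and 3396 bases in Wnt1 and 3427, 3429 and 1648 bases in control. Replicate 3 of Wnt1+KP6 and replicate 3 of control were thus scaled over a shorter length than the rest, and the highest was 2.09 times the lowest, a wider range than 98.9% of 12003 genes with at least 15 counts in every library. In FPKM, TGFB3 therefore stood at 1.13 in replicate 3 of control, against 0.387 and 0.371 in the other control libraries, where the counts differ less (1.86 CPM against 1.33 and 1.27 CPM). For SMAD3 the implied length ran from 3418 to 4888 bases, a wider range than 92.6% of genes, and for TGFBR2 it stayed within a ratio of 1.00.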
